A study of Mus musculus with 25 samples.

Results

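Complement components and receptors were followed in microglia as 8 genes named by symbol, the C1q chains C1qa, C1qb and C1qc, the central component C3, the anaphylatoxin receptors C3ar1 and C5ar1, and the integrin subunits Itgam and Itgb2. All 8 were found among the 43411 genes of the deposited count table, and 7 of them were among the 12908 genes with enough counts to be tested. C3 was the member left out by the filter on low counts.

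RNA had been sequenced from FACS-sorted CD11b+ CD45med brain microglia of 23 mice aged 3 months, each giving 1 library, in a study of what loss of Bin1 from forebrain excitatory neurons does to surrounding cells. There were 10 homozygous Bin1-cKO mice (Bin1flox/flox X Thy1-Cre+, 5 females and 5 males), 7 heterozygous Bin1-cKO mice (Bin1flox/wt Thy1-Cre+, 4 females and 3 males) and 6 WT littermates (Bin1flox/wt Thy1-Cre-, 2 females and 4 males). Every mouse, WT littermates included, therefore carried a floxed Bin1 allele, 2 in homozygous mice and 1 in the others, and all came from a cross of B6.129S6-Bin1tm2Gcp/J with FVB/N-Tg(Thy1-cre)1Vln/J. The Thy1 promoter drives Cre in forebrain excitatory neurons after birth, and the sorted cells are not the cells the deletion is aimed at. Whether the floxed allele stayed intact in the sorted cells was not tested. Animal numbers in the labels put all WT and heterozygous mice in a range that begins with 02, 6 homozygous mice in a range that begins with 03 and 4 in a range that begins with 04. Whether a range is a breeding or sorting cohort is not stated, and genotype and number range cannot be told apart. Mice are named below by sex and a running number within genotype.

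Total counts per mouse ranged from 10812877 to 16734740. Bin1 itself was read at 599.7 to 814 CPM (read counts scaled to the library's size with TMM factors) in WT littermates and at 327.6 to 672.7 CPM in homozygous mice, 8 of which lay below all other mice (log2 fold change -0.60, SE 0.117, adjusted p = 0.00173 by edgeR), and what this comes from was not tested. All 12 listed microglia genes were well above the filter, with a summed level of 69500 to 97500 CPM in WT littermates. The sum was 64900 to 85700 CPM in heterozygous mice and 60300 to 71000 CPM in homozygous mice. Of the 12, 10 were lower in homozygous than in WT mice. The test passed 6 of the 12 as lower, where 7.09% of all genes tested passed as lower. Fos, an immediate-early gene, was above 100 CPM in 4 homozygous mice (F1, F2, M1 and M2) and in no other mouse.

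Complement is a cascade of plasma proteins that tags targets for removal. C1q, built from chains of 3 kinds encoded side by side, recognizes the target and starts the classical pathway, which ends in cleavage of C3. Fragments of C3 on the target are bound by complement receptor 3, the pair of Itgam (CD11b) and Itgb2 (CD18), while the small released fragments C3a and C5a act on the receptors C3ar1 and C5ar1. In brain, microglia are the main source of C1q, and C1q, C3 and complement receptor 3 are known for their part in the removal of synapses.

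The C1q genes lie within a short stretch of chromosome 4 of GRCm38, all on the minus strand. C1qb (ENSMUSG00000036905.8) spans 136880129 to 136886187, C1qc (ENSMUSG00000036896.5) 136889804 to 136893065 and C1qa (ENSMUSG00000036887.5) 136895917 to 136898803. C3 (ENSMUSG00000024164.13) lies on chromosome 17 from 57203970 to 57228136, C3ar1 (ENSMUSG00000040552.8) on chromosome 6 from 122847138 to 122856161 and C5ar1 (ENSMUSG00000049130.5) on chromosome 7 from 16246743 to 16259540, all 3 on the minus strand. Itgam (ENSMUSG00000030786.16) lies on the plus strand of chromosome 7 from 128062640 to 128118491, and Itgb2 (ENSMUSG00000000290.11) on the plus strand of chromosome 10 from 77530252 to 77565708.

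RefSeq windows from 250 bases before to 50 bases after the annotated start (GRCm38.p6) were held for 6 of the 8 members. None was held for C1qa or Itgb2, so their starts were not looked at. The windows of 4 are shown because their genes gave the contrasts described below, C1qb and C1qc that varied together, Itgam that was lower in homozygous mice and C3ar1 that was higher. Each is written 5′ to 3′ on the strand of its gene, with GAGGAA, the core bound by the myeloid factor PU.1 (Spi1), in capitals on either strand, so that TTCCTC is the same core read from the other strand.
C1qb, chr4:136886151-136886450, minus strand: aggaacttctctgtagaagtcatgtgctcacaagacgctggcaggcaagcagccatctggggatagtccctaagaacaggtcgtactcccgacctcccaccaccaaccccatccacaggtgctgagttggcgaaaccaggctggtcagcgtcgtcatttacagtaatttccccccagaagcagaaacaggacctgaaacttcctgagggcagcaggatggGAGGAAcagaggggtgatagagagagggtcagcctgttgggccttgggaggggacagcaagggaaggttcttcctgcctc
C1qc, chr4:136892865-136893164, minus strand: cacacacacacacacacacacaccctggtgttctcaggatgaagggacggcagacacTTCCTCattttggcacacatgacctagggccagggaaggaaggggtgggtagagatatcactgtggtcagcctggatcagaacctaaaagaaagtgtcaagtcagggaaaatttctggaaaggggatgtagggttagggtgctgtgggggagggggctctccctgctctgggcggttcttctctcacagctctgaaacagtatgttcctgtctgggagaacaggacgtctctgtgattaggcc
Itgam, chr7:128062390-128062689, plus strand: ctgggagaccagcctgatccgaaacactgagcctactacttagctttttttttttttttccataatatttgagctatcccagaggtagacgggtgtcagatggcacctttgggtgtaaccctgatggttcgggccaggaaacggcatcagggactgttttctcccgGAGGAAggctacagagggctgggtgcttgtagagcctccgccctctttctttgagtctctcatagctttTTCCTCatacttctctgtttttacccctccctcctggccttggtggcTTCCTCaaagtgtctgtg
C3ar1, chr6:122856108-122856407, minus strand: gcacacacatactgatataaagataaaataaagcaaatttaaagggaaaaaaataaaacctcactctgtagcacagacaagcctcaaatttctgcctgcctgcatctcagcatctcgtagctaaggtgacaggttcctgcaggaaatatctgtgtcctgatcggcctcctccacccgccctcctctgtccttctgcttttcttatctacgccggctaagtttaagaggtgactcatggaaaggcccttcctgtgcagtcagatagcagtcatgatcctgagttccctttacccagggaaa
The C1qb and C1qc windows each held the core in 1 place, at positions -30 and -193 from the start. The Itgam window held it in 3 places, at positions -84, -15 and 32. It was not among the letters of the C3ar1, C5ar1 and C3 windows. Of 32851 mouse windows of this length, 28.3% held GAGGAA on either strand. TGANTCA, letters bound by AP-1 factors, stood in 1 of the 6 windows, that of C3ar1 at position -22, and in 7.81% of all windows.

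Microglia of homozygous Bin1-cKO mice had less C1qa, Itgam and Itgb2 and more C3ar1 than those of WT littermates, while C1qb and C1qc stayed near the WT level. The Itgb2 call was not firm, that of C1qa was lost in some settings, and none was kept with neuron genes as a covariate. Of the 7 members tested, 4 passed an adjusted p of 0.05 between homozygous and WT mice (edgeR's quasi-likelihood test with sex in the fit, Benjamini-Hochberg adjustment over all genes tested), 1 higher and 3 lower. Over all 12908 genes, 12.7% passed, 5.66% higher and 7.09% lower. With a fold change above 1.5 in addition, the rule for a differentially expressed gene (DEG), 1 member remained, Itgam, beside 3.4% of all genes. Between homozygous and heterozygous mice 5 of the 7 members passed, C3ar1 and C5ar1 higher and C1qa, Itgam and Itgb2 lower, where 22.7% of all genes did, 11.1% higher and 11.7% lower. There the member past the fold change threshold was C3ar1, beside 6.62% of all genes. Without homozygous M4, without heterozygous M1 or M4 and with homozygous mice numbered 03 alone it was Itgam in its place. Both comparisons share the same homozygous mice, so the second is no independent repeat of the first. The median log2 fold change of the 7 members against WT was -0.02, beside 0.01 over all genes tested, and against heterozygous mice 0.01, beside -0.0027 over all genes tested.

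**Figure D1:**
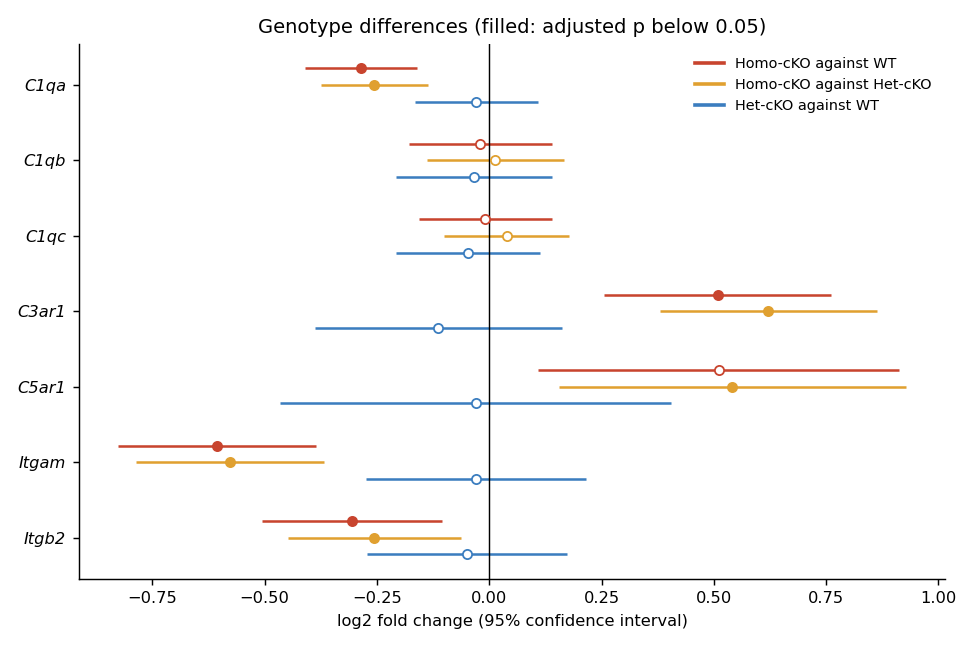
Log2 fold change of the 7 tested members (horizontal axis, points) with its 95% confidence interval (lines) for homozygous against WT, homozygous against heterozygous and heterozygous against WT mice. Filled points passed an adjusted p of 0.05: C1qa, Itgam and Itgb2 lie to the left of 0 and C3ar1 to the right in both comparisons with homozygous mice, C5ar1 is filled in the comparison with heterozygous mice, and no point of the heterozygous against WT comparison is filled.

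Set side by side per kb of exon, the C1q chains were far above the other members. Over all 23 mice C1qb stood at 6455 CPM per kb, C1qa at 4084 and C1qc at 3083, places 4, 6 and 10 among the 12908 genes tested. Itgam followed at 314.7 CPM per kb (place 106) and Itgb2 at 214.9 (place 176). The anaphylatoxin receptors stood at 75.1 CPM per kb for C5ar1 (place 566) and 67.6 for C3ar1 (place 640). C3 was at 0.0961 CPM per kb. Together the 8 members took 1.70% to 2.23% of all counts of a library, and the C1q chains alone 1.49% to 1.94%.

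In WT littermates the order per kb was C1qb (6522 ± 512.2 CPM per kb, SD, n = 6), C1qa (4424 ± 328.4), C1qc (3124 ± 200.8), Itgam (371.4 ± 75.9), Itgb2 (237 ± 33.3), C5ar1 (63.7 ± 10.4) and C3ar1 (57.5 ± 4.33). Neighbors in this order had separate ranges down to Itgam. Itgam (270.6 to 492.2) and Itgb2 (186.4 to 282.0) overlapped at the edge, and C5ar1 (50.1 to 78.0) and C3ar1 (52.3 to 63.5) overlapped throughout. Homozygous mice kept the same order of means, with C1qa at 3662 ± 264.9 CPM per kb (SD, n = 10), C1qc at 3103 ± 342.6, Itgam at 244.8 ± 30.25 and Itgb2 at 191.8 ± 23.1. In them the ranges of C1qa (3346 to 4204) and C1qc (2532 to 3568) overlapped, which they did not in WT littermates (3957 to 4956 and 2909 to 3475). Itgam (210.9 to 295.3) and Itgb2 (152.1 to 213.2) again overlapped at the edge.

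**Figure D2:**
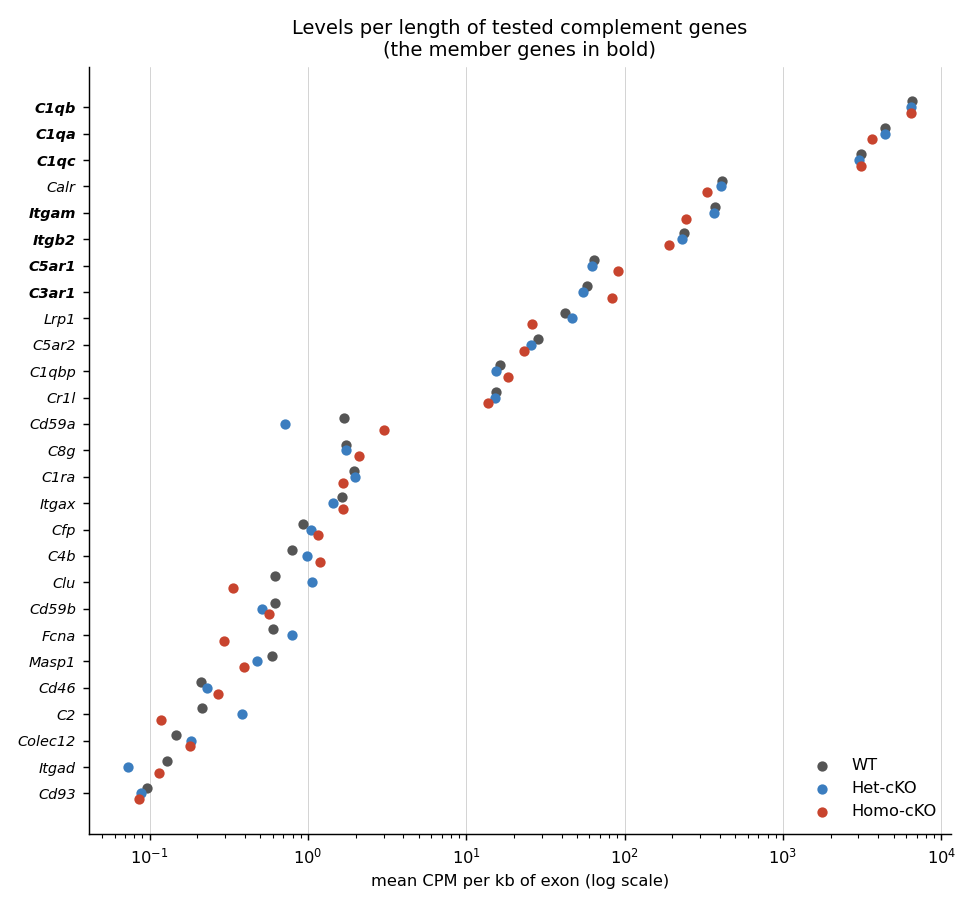
Mean CPM per kb of exon (log scale) of tested complement genes, by genotype, ordered by the mean over all mice, with the members in bold. C1qb, C1qa and C1qc lead at 3083 to 6455 CPM per kb, Calr, Itgam and Itgb2 come next at 214.9 to 373.9, and 15 genes of the wider complement list lie below 2 CPM per kb, all on the mean over all mice.

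C1qa, the A chain, was read at 4115 CPM in the lowest WT littermate, 4604 at the median and 5154 in the highest. Heterozygous mice spanned 3850 to 5101 CPM around a median of 4588, and homozygous mice 3480 to 4372 CPM around a median of 3759. Of the 10 homozygous mice 9 lay below all WT littermates and 6 below all other mice, and F4 at 4372 CPM was the one within the WT range. The log2 fold change was -0.28 against WT (SE 0.0606, adjusted p = 0.00332 by edgeR), a level 1.22-fold lower, and -0.26 against heterozygous mice (SE 0.0576, adjusted p = 0.0027). The call was kept in all 23 fits that left out 1 mouse, in both comparisons, but in neither when the 4 homozygous mice numbered 04 stood alone (adjusted p = 0.085 against WT). Of the 138 genes tested within 5 Mb of C1qa, 28.3% passed against WT, beside 12.7% of all genes. The cross joined different strain backgrounds, alleles around C1qa were not read here, and their part in its level was not tested. Counts cannot tell fewer transcripts per cell from fewer cells of a type in the sorted pool, here and for every gene below.

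C1qb, the B chain, gave another picture. Its level was 6186 to 7693 CPM in WT littermates (median 7043), 5927 to 7566 CPM in heterozygous mice (median 7078) and 5697 to 8131 CPM in homozygous mice (median 7037). Homozygous mice lay on both sides, with 3 below all WT littermates (F1, F3 and M2, at 5697 to 6074 CPM) and 3 above them (F5, M3 and M4, at 7838 to 8131 CPM). C1qc, the C chain, was at 5618 to 6710 CPM in WT littermates (median 5998), 5190 to 6474 CPM in heterozygous mice (median 5679) and 4889 to 6891 CPM in homozygous mice (median 6142), again with 3 below and 2 above the whole WT range. The log2 fold change against WT was -0.02 for C1qb (95% confidence interval -0.18 to 0.14, adjusted p = 0.911 by edgeR) and -0.01 for C1qc (-0.16 to 0.14, adjusted p = 0.963). Changes within these intervals cannot be told from 0 here, and neither interval holds the estimate for C1qa. The coefficient of variation of C1qb was 12.5% in homozygous mice, beside 7.85% in WT littermates and 8.76% in heterozygous mice.

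**Figure D3:**
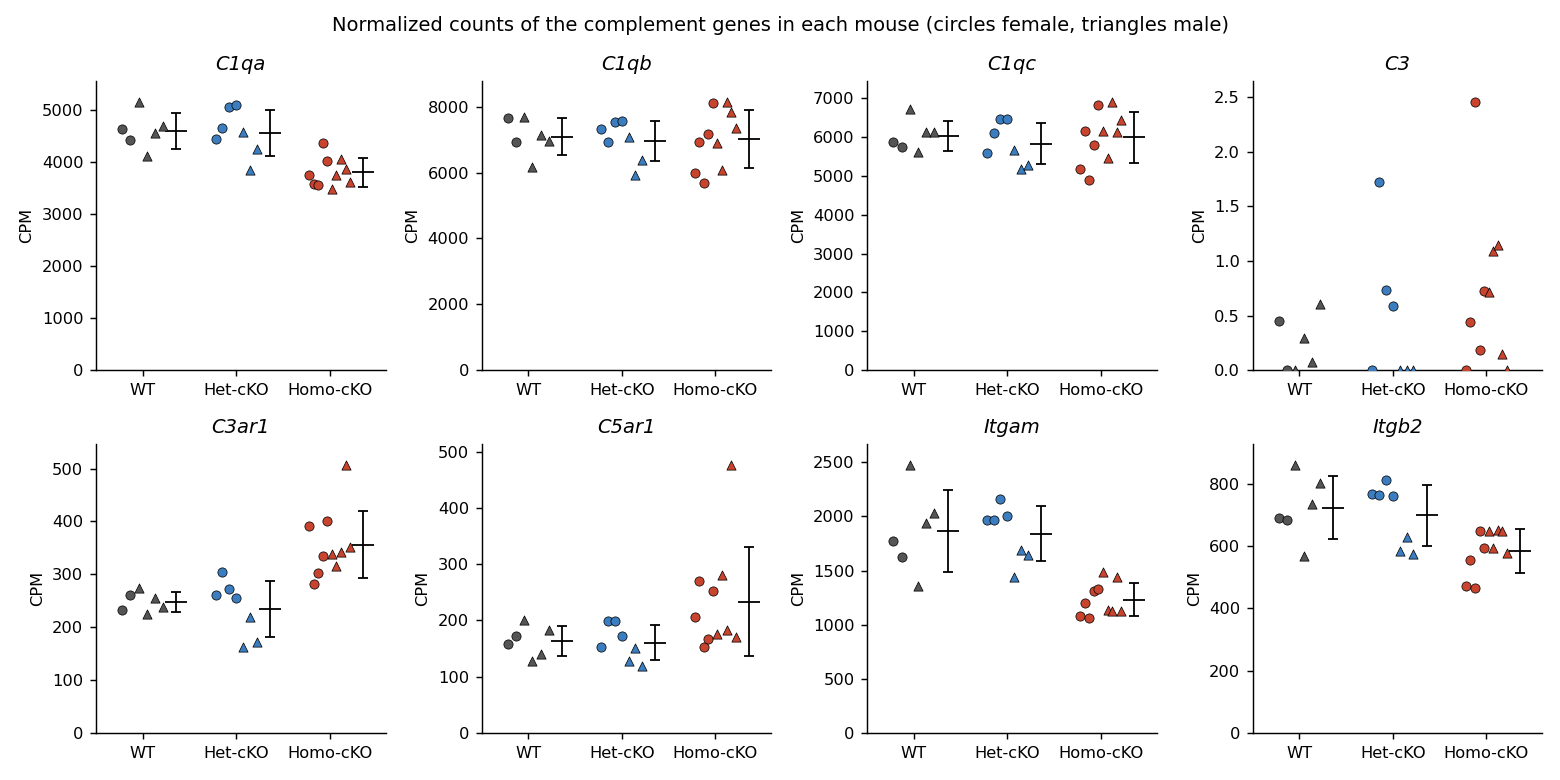
CPM of each of the 8 members (vertical axes, from 0) in each mouse by genotype, circles for females and triangles for males, with the mean and SD beside each group except for C3, which rests on few counts. Homozygous mice sit low for C1qa and Itgam, above all WT littermates for C3ar1 (281.1 to 506.5 against 225.3 to 273.4 CPM), and on both sides of WT for C1qb and C1qc. Homozygous M4 stands alone at the top for C5ar1 (476.3 CPM).

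The ratio of chains within a mouse does not depend on library size. As log2 of C1qa over C1qb it was -0.72 to -0.57 in WT littermates and again -0.72 to -0.57 in heterozygous mice. Homozygous mice fell into separate ranges with nothing between them, 4 mice (F1, F3, F4 and M2) at -0.71 to -0.67 and 6 mice (F2, F5, M1, M3, M4 and M5) at -1.03 to -0.945. The first 4 lay at the low edge of the span of the other genotypes, below all of those mice except WT F1 (-0.723) and heterozygous F1 (-0.7185). The 6 lay below every WT and heterozygous mouse. Each range held females and males and mice numbered 03 and 04, and the 4 mice of high Fos were split, F1 and M2 in the upper range and F2 and M1 in the lower. The split was placed at the widest gap of this ratio, after its values were seen. For C1qa over C1qc the same 4 mice were at -0.54 to -0.40 and the other 6 at -0.83 to -0.67. Of the 4, F4 alone lay within the WT range of -0.45 to -0.34.

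The single chains differed between these mice as follows. In F1, F3 and M2 of the upper range all 3 chains lay below the whole WT range, as in F3 with 3564 CPM of C1qa, 5697 of C1qb and 4889 of C1qc, while in F4 all 3 lay within it. In the 6 mice of the lower range C1qa was below the WT range and C1qb and C1qc were within or above it, as in M3 with 4057, 8131 and 6891 CPM. Over all homozygous mice the mean log2 ratio of C1qa to C1qb was -0.87 ± 0.162 (SD, n = 10), against -0.62 ± 0.0591 (SD, n = 6) in WT littermates (difference -0.25, exact permutation test, two-sided, with 8008 possible splits, p = 0.0025, adjusted p = 0.00333 over 8 ratio comparisons). For C1qa over C1qc the difference was -0.26 (exact permutation test, p = 0.00125, adjusted p = 0.002), with 9 of 10 homozygous mice below all WT littermates. C1qb over C1qc differed by -0.01 (exact permutation test, p = 0.834, adjusted p = 0.834), within the spread of either group (0.15 to 0.35 in homozygous mice, 0.14 to 0.38 in WT littermates). The ratios were chosen after the values of the single genes were seen.

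**Figure D4:**
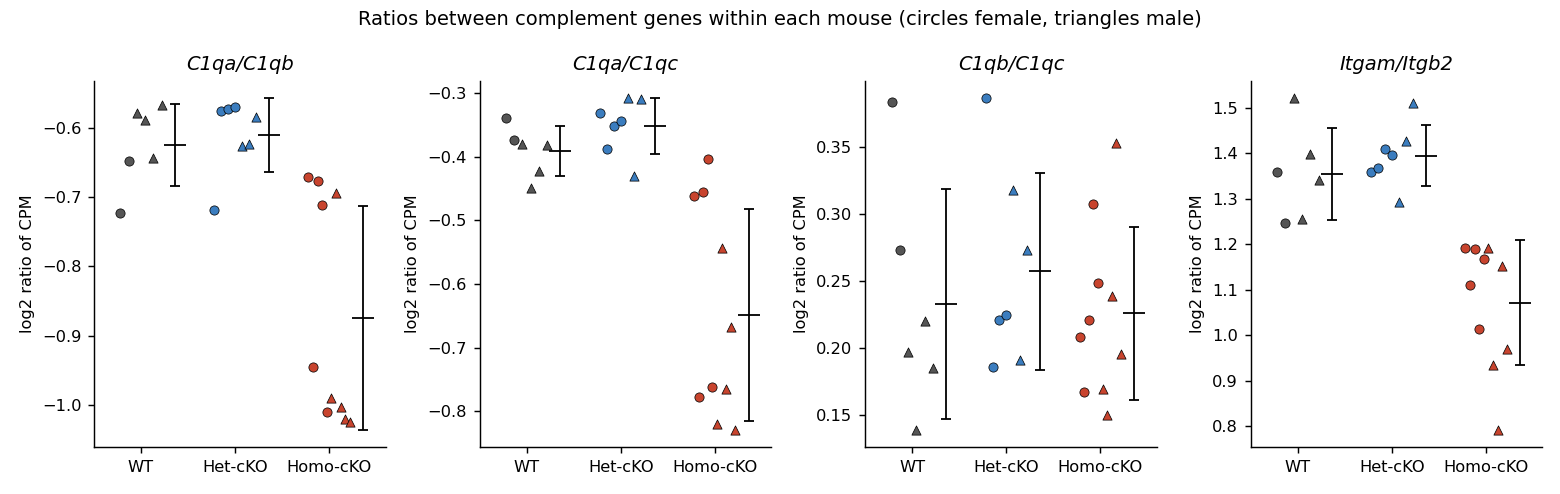
Log2 ratio of CPM (vertical axes) between chains of C1q and between the subunits of complement receptor 3 in each mouse by genotype, circles for females and triangles for males, with the mean and SD beside each group. For C1qa/C1qb the homozygous mice lie in ranges of 4 and 6 mice with a gap of 0.23, and for Itgam/Itgb2 all 10 lie below every other mouse. The ratios were chosen after the values of the single genes were seen.

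C3, the component that all pathways lead to, was hardly read in these cells. Its counts were 0 to 9 in WT littermates (median 2.5), 0 to 25 in heterozygous mice (median 0) and 0 to 35 in homozygous mice (median 7.5). In CPM the highest mice were homozygous F3 at 2.45 and heterozygous F2 at 1.72, and 8 of the 23 mice had no count. A count of 0 at these depths allows up to 3 counts. Without the filter on low counts the log2 fold change of homozygous against WT mice was 1.29 with an SE of 0.946 (adjusted p = 0.495 by edgeR), so a difference was not detectable at this depth.

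C3ar1, the receptor for C3a, rose in homozygous mice. It was at 225.3 to 273.4 CPM in WT littermates (median 247.1), 162.6 to 304.2 CPM in heterozygous mice (median 255.3) and 281.1 to 506.5 CPM in homozygous mice (median 339.7). All 10 homozygous mice were above all WT littermates, and 8 were above every other mouse, heterozygous F2 at 304.2 CPM being the one that reached over homozygous F2 and F3. The log2 fold change was 0.51 against WT (SE 0.123, adjusted p = 0.00783 by edgeR), 1.42-fold, and 0.62 against heterozygous mice (SE 0.118, adjusted p = 0.000719), 1.54-fold. Mice numbered 03 had a mean of 328.5 ± 37.8 CPM (SD, n = 6) and those numbered 04 a mean of 398.1 ± 77.5 CPM (SD, n = 4), each above the 247.5 ± 18.65 CPM (SD, n = 6) of WT littermates. Without M4, the highest mouse, the log2 fold change against WT was 0.41 (adjusted p = 0.0118 by edgeR).

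C5ar1, the receptor for C5a, had the widest spread of the 7 tested members among homozygous mice (coefficient of variation 41.4%), though not among WT (16.2%) or heterozygous mice (19.7%). WT littermates were at 128.8 to 200.4 CPM (median 165.3), heterozygous mice at 119.2 to 199.6 CPM (median 153.5) and homozygous mice at 152.5 to 476.3 CPM (median 194.5). Of the homozygous mice 5 (F1, F2, F5, M2 and M4) were above all WT and heterozygous mice, and the other 5 lay within the WT range. Against WT the log2 fold change of 0.51 (SE 0.195, 95% confidence interval 0.11 to 0.91) did not pass (adjusted p = 0.087 by edgeR), and without M4 it was 0.30 (adjusted p = 0.177). Against heterozygous mice it was 0.54 (SE 0.187, adjusted p = 0.0386), a call that 15 of the 23 fits with 1 mouse left out kept and that was not given by limma-voom, by robust estimation, by a fit of these 2 groups alone, without the homozygous mice of high Fos or with the level of immediate-early genes or of neuron genes as a covariate. It was lost without heterozygous F1, F4, M1, M3 or M4 and without homozygous F2, F5 or M2, with an adjusted p of at most 0.0999.

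C3ar1 and C5ar1 are also made by monocytes and neutrophils, cells of high CD45 that a gate on intermediate CD45 is meant to leave out, and markers of these cells are given here. The 7 listed monocyte genes, Ccr2 among them, summed to 6.77 to 13.3 CPM in WT littermates. The sum was 5.71 to 16.0 CPM in heterozygous and 10.8 to 26.2 CPM in homozygous mice. Of the 4 that were tested, 2 were higher and 2 lower in homozygous than in WT mice. Only 1, Ccr2, passed, as higher, where 5.66% of all genes passed as higher. Neutrophil genes (7 of 8 in the table) summed to 2.64 to 39.6 CPM, 4.18 to 52.5 CPM and 2.34 to 87.2 CPM in the same order, and none of the 5 tested passed. Homozygous M4, highest for both receptors, had 15.9 CPM on the monocyte list and 2.34 CPM on the neutrophil list, the lowest neutrophil sum of any mouse. The 7 genes of border macrophages, of which Mrc1 was listed at 0 in every mouse, summed to 6.90 to 31.6 CPM in WT littermates and 5.94 to 38.2 CPM in homozygous mice. The part of these cells in the receptor levels was not tested.

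Itgam, the CD11b subunit and one of the proteins the cells were sorted on, gave the clearest fall. Its level was 1359 to 2473 CPM in WT littermates (median 1854), 1436 to 2156 CPM in heterozygous mice (median 1970) and 1060 to 1484 CPM in homozygous mice (median 1166). Of 10 homozygous mice 8 lay below every WT and heterozygous mouse, with M1 (1484 CPM) and M4 (1440 CPM) just inside the others' range. The log2 fold change was -0.61 against WT (SE 0.107, adjusted p = 0.000794 by edgeR), 1.52-fold lower, and -0.58 against heterozygous mice (SE 0.102, adjusted p = 0.000385). Both calls were kept in all 23 fits with 1 mouse left out. The fold change sits at the DEG threshold, and the DEG call against WT was lost without WT M1 (highest of all, 2473 CPM) or without WT M4, and with homozygous mice numbered 04 alone (log2 fold change -0.54), where C3ar1 was the DEG. Ptprc, which encodes the other sort marker CD45, had a log2 fold change of -0.07 (adjusted p = 0.638 by edgeR), and whether the sort gate bears on Itgam was not tested. Of the 25-base stretches in Itgam exons, 69.0% are also assigned to genes of a later annotation that are not in the count table, so such reads were not split between them here.

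Itgb2, the CD18 subunit, moved the same way and less. It was at 569 to 860.5 CPM in WT littermates (median 712.2), 575.4 to 811.2 CPM in heterozygous mice (median 761.3) and 464.3 to 650.6 CPM in homozygous mice (median 593.1), and 3 homozygous mice (F1, F2 and F3) lay below all others. The log2 fold change was -0.31 against WT (SE 0.0973, adjusted p = 0.0388 by edgeR) and -0.26 against heterozygous mice (SE 0.0934, adjusted p = 0.0492). Neither call was firm. Against WT it was kept in 14 of the 23 fits with 1 mouse left out and lost without WT F1, M1, M3 or M4 or homozygous F1, F2, F3, M2 or M5 (log2 fold change -0.36 to -0.25), and against heterozygous mice it was kept in 8 of 23, with an adjusted p of 0.0285 to 0.114, and lost without any WT mouse but M2, any heterozygous female or homozygous F1, F2, F3, F5, M2 or M5.

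Between the subunits, the log2 ratio of Itgam to Itgb2 did not overlap between homozygous and other mice. It was 1.25 to 1.52 in WT littermates, 1.29 to 1.51 in heterozygous mice and 0.79 to 1.19 in homozygous mice, so that all 10 homozygous mice lay below all 13 others. The means of 1.07 ± 0.138 (SD, n = 10) and 1.35 ± 0.102 (SD, n = 6) differed by -0.28 (two-sided exact permutation test, p = 0.00025, the smallest that 8008 splits can give, adjusted p = 0.000666 over the 8 ratio comparisons). Against heterozygous mice (1.39 ± 0.0672, SD, n = 7) the difference was -0.32 (exact permutation test, p = 0.000103, the smallest of 19448 splits, adjusted p = 0.000666). This ratio too was chosen after Itgam was seen to fall further than Itgb2, so its p-values are no independent support. How many other pairs of genes separate the genotypes this way was not computed.

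No member passed between heterozygous Bin1-cKO mice and WT littermates. None of the 7 passed, where 0 of 12908 genes did by edgeR's quasi-likelihood test (998 genes, 7.73%, were under an unadjusted p of 0.05, and none of these was a member). The log2 fold changes were all slightly below 0, from -0.11 for C3ar1 to -0.03 for C1qa, with 95% confidence intervals of -0.17 to 0.11 for C1qa, -0.39 to 0.16 for C3ar1, -0.47 to 0.41 for C5ar1 and -0.27 to 0.22 for Itgam. DESeq2 and limma-voom called 0 members as well, and 3 and 0 of all genes.

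No member differed detectably by sex. Between males and females 0 of 7 passed, where 0.0852% of all genes did, and the log2 fold changes ran from -0.12 (C3ar1) to 0.01 (C1qc). The genotype effect was not shown to differ between the sexes, since 0 of 7 members and 0 of all genes passed the interaction test by edgeR (644 genes, 4.99%, under an unadjusted p of 0.05, none of them a member) and limma-voom and DESeq2 called 0 members, and 0 and 1 of all genes. Within females (5 homozygous, 2 WT) the log2 fold changes were -0.23 for C1qa, 0.47 for C3ar1, -0.50 for Itgam and -0.33 for Itgb2, with no member passing, where 0.457% of all genes did. Within males (5 homozygous, 4 WT) they were -0.30, 0.58, -0.63 and -0.25, and C1qa, C3ar1 and Itgam passed, where 6.06% of all genes did.

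The rest of the complement system was taken from a list of 48 further genes, of which 47 were in the table and 21 could be tested. Listed levels differed widely, from 0 in every mouse to 373.9 CPM per kb over all mice for Calr. Of the classical pathway enzymes and C4 3 of 7 could be tested, of the lectin pathway 3 of 9, of the alternative pathway 1 of 3 (Cfp, properdin), of the terminal pathway 1 of 7 (C8g), of the regulators 7 of 13 and of the other receptors 6 of 9. Listed at 0 in every mouse were 12 of the 47, among them Hc, which encodes C5, the terminal components C8a, C8b and C9, and the regulator Cd55. Btg2, an immediate-early gene of many cell types, was listed at 0 in every mouse too, so a 0 in this table is not read as absence.

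Between homozygous and WT mice 2 of the 21 passed, both lower, where 12.7% of all genes passed. Lrp1, an endocytic receptor that works with calreticulin in uptake of C1q-tagged cells, was at 568.8 to 873.4 CPM in WT littermates, 610.6 to 931.7 CPM in heterozygous mice and 285.3 to 671.8 CPM in homozygous mice. Of the homozygous mice 9 lay below all others, and M4 at 671.8 CPM did not. The log2 fold change was -0.69 (SE 0.128, adjusted p = 0.00115 by edgeR), past the DEG threshold. Calr, calreticulin, a binding partner of the C1q tail, was at 958.6 to 1445 CPM, 1038 to 1427 CPM and 812.6 to 1164 CPM in the same order, 5 homozygous mice lying below all others, with a log2 fold change of -0.32 (SE 0.0824, adjusted p = 0.0112). Without WT M1 Lrp1 was the 1 gene to pass, and without WT M2 4 genes did.

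C5ar2, the second receptor for C5a, had a log2 fold change of -0.31 against WT (SE 0.103, adjusted p = 0.0504 by edgeR), just short of the threshold and of opposite sign to the estimate for C5ar1. It passed with DESeq2, with robust estimation, with upper quartile scaling, with no sex term, without the homozygous mice of high Fos and without WT M2 or homozygous F2, M2 or M4. It was singled out after its values were seen. Per kb of exon Calr stood at 373.9 CPM per kb over all mice and Lrp1 at 36.3. The median log2 fold change of the 21 genes was -0.13, with 8 above and 13 below 0, beside 0.01 over all genes tested.

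Against heterozygous mice 5 of the 21 passed, where 22.7% of all genes did, and 4 of the 5 were lower. These were Lrp1 (log2 fold change -0.86, adjusted p = 5.9e-05 by edgeR), Calr (-0.29, adjusted p = 0.0112), Clu (-1.63, adjusted p = 0.0109), which encodes clusterin, and C2 (-1.62, adjusted p = 0.0322), the classical pathway protease. Clu and C2 were near the floor of the filter, at 1.06 and 0.382 CPM per kb in heterozygous mice. C1qbp, a mitochondrial protein first found as a binder of C1q, was the one that was higher (0.25, adjusted p = 0.0221). None passed between heterozygous and WT mice.

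**Figure D5:**
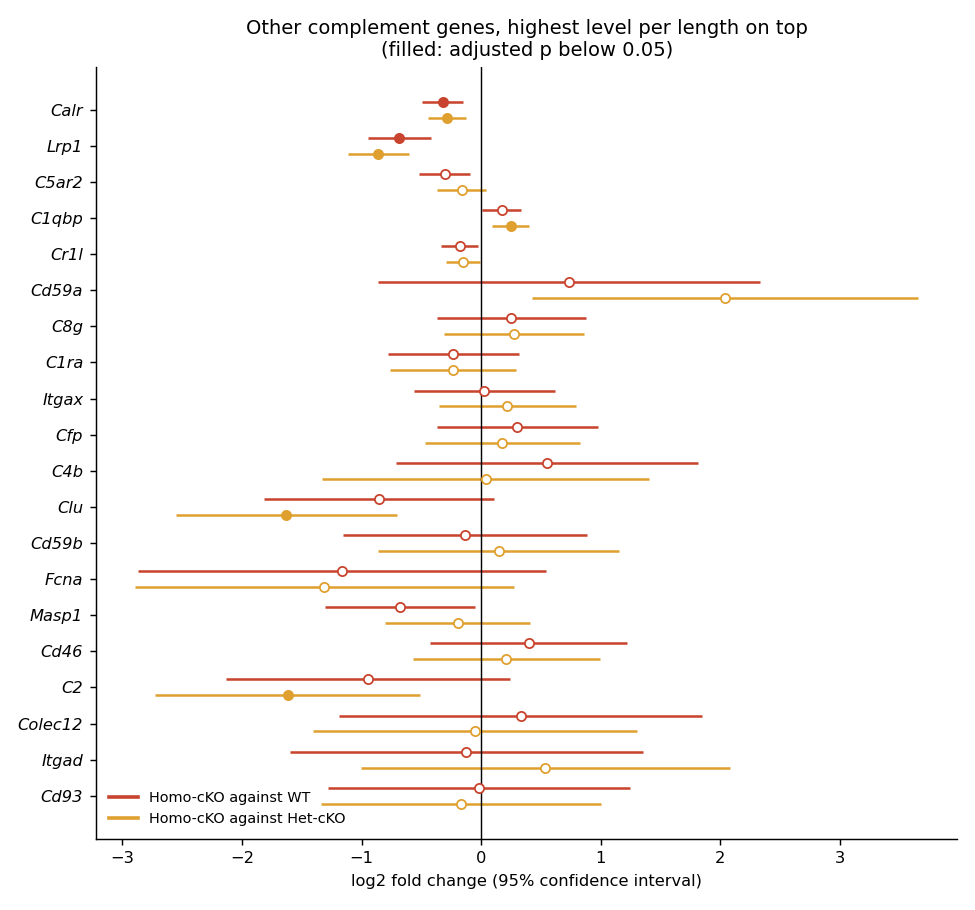
Log2 fold change with 95% confidence interval of tested genes of the wider complement list, highest level per kb on top, for homozygous against WT and homozygous against heterozygous mice. Filled points passed an adjusted p of 0.05: Calr and Lrp1 in both comparisons, and C1qbp, Clu and C2 in the comparison with heterozygous mice.

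Members also varied together among mice, some pairs closely and others weakly. After the means of genotype and the sex difference were taken out of log2 CPM, all 21 pairs of the 7 members had a positive Pearson r over 23 mice. How often pairs of other genes had a positive r was not computed, so the shared sign is not read as particular to the members. The closest pair was C1qb and C1qc, with r = 0.89 (permutation test within genotype, 100000 permutations, p = 1e-05, the smallest they can give, adjusted p = 0.0001 over 21 pairs) and Spearman's rho = 0.84 (permutation p = 1e-05, adjusted p = 0.00021). Without the 2 mice farthest from the median of C1qb, r was 0.83, and within the number ranges that begin with 02 and 03 it was 0.80 and 0.98. Itgam and Itgb2 came next, with r = 0.86 (permutation p = 1e-05, adjusted p = 0.0001), rho = 0.81 (permutation p = 5e-05, adjusted p = 0.00052), r = 0.83 without the 2 farthest mice and r = 0.93 and 0.70 within the ranges.

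The anaphylatoxin receptors were tied less firmly. C3ar1 and C5ar1 had r = 0.65 over all mice (permutation p = 0.0031, adjusted p = 0.0065) and rho = 0.52 (permutation p = 0.013, adjusted p = 0.021), but r = 0.42 without the 2 mice farthest from the median of C3ar1. Within the range that begins with 02 r was 0.78 and within that of the 6 homozygous mice numbered 03 it was -0.19, so the relation did not hold there. C1qa and Itgam had r = 0.69 and -0.14 in the same ranges. No pooled r is printed for C1qa with C1qb or C1qc, since homozygous mice fell into separate ranges of the C1qa to C1qb ratio. Both pairs are counted among the 21 above, and the mean of the C1q chains used below includes C1qa.

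Over the same 23 mice and residuals, the genes nearest to the mean of the C1q chains were Glmp (r = 0.88), Ddost (0.86) and Trf (0.86). For Itgam they were Adgrg1 (0.93), Sort1 (0.93) and Tm9sf4 (0.92), for Itgb2 Daglb (0.94), Clptm1 (0.93) and Tm9sf4 (0.92), which was thus common to both subunits. Those of C3ar1 were Cpd (0.86), Gusb (0.85) and Cd83 (0.84), and those of C5ar1 Pdia3 (0.80), Gusb (0.76) and Gbp7 (0.76), Gusb being common to both receptors. Itgb2 was in place 30 for Itgam among all genes tested and Itgam in place 37 for Itgb2. These values share library and depth and carry no test.

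Neuronal RNA moved with genotype as well. The 7 neuron genes summed to 5.72 to 28.9 CPM in WT littermates, 7.75 to 22.9 CPM in heterozygous mice and 1.98 to 5.86 CPM in homozygous mice. With the mean of this list as a covariate no member passed between homozygous and WT mice, and 18 of all genes did. The list separates the genotypes almost fully, so its part and that of genotype cannot be told apart. C3ar1, Itgam and C1qa then had log2 fold changes of 0.57, -0.41 and -0.16 (adjusted p = 0.248, 0.342 and 0.542 by edgeR). Leaving out the 4 homozygous mice of high Fos kept the calls of C1qa, C3ar1 and Itgam and lost that of Itgb2 (adjusted p = 0.11).

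Lists of other cells held the following. Lymphocyte genes summed to at most 0.598 CPM in any mouse. Astrocyte genes summed to 6.77 to 20.4 CPM in WT littermates and 1.53 to 12.1 CPM in homozygous mice, oligodendrocyte genes to 179 to 253 and 153 to 209 CPM, and endothelial genes to 37.2 to 69.8 and 26.8 to 52.0 CPM. Immediate-early genes moved the other way, from 633 to 802 CPM in WT littermates to 763 to 13600 CPM in homozygous mice. Beside 5.66% of all genes, 11 of the 13 tested immediate-early genes passed as higher. With their mean as a covariate C3ar1 and Itgam still passed against WT, and C1qa and Itgb2 did not (adjusted p = 0.0581 and 0.188 by edgeR). The part of these cells and genes in the members' levels was not tested further.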

How the data were processed

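Microglia RNA was sequenced from 23 mice by the authors, as 50-base single reads of unstranded libraries, aligned to mm10 with Ensembl gene models and quantified with RSEM. The deposited values are expected counts per gene, with no normalization, and were rounded to whole numbers here. The labels name 25 samples, of which 2, a WT female and a heterozygous male, have no column and were not analysed here. The paper states that a sample from each of these groups was removed for few uniquely mapped reads and high duplication.

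Genes were filtered with filterByExpr by genotype, which left 12908 of 43411, and fitted with edgeR 4.0.16 (R 4.3.3) by the quasi-likelihood test with TMM scaling, a mean per genotype and a term for sex, and Benjamini-Hochberg adjustment over all genes tested. Passing was an adjusted p below 0.05, and a DEG also had a fold change above 1.5. CPM are counts scaled to library size with TMM factors. The spread between mice of a genotype sets the p-values, as the labels give each mouse its own number. Ratios were compared with exact permutation tests and pairs of members with permutations within genotype (scipy 1.17.1). DESeq2 1.42.0, limma-voom 3.58.1, other scalings, filters, covariates and left-out mice were the alternatives. The code was tested on simulated counts. Confidence intervals of fold changes rest on the spread between mice, and the floor for a count of 0 covers counting error only.

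The members, the lists and the tests were chosen with earlier results of these data known. All members were named in every comparison, and of the wider list every gene passing in a genotype comparison and the 3 highest per kb. The result of 1 gene of the wider list is not reported here.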

Additional observations from a re-analysis of the deposited data

Results flagged for a closer look

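In 24 groups of mice (8 members by 3 genotypes) the highest or lowest mouse was compared with its nearest neighbor by Dixon's ratio, which chance passes in about 1 of 20 groups, and 4 passed. C5ar1 was at 476.3 CPM in homozygous M4, where the next homozygous mouse was at 280.1 CPM. C3ar1 was at 506.5 CPM in the same mouse, where the next was at 400.6 CPM. C3 was at 2.45 CPM in homozygous F3 (next 1.145 CPM) and at 1.718 CPM in heterozygous F2 (next 0.7303 CPM), each on at most 35 counts.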

How the results depend on the processing

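No paired analysis was possible because each label carries its own animal number. Against WT, 4 members passed, and 3 to 4 did when 1 mouse was left out. The count was 2 with homozygous mice numbered 04 alone (C3ar1 and Itgam), 2 with an immediate-early covariate (C3ar1 and Itgam) and 0 with a neuron covariate. DEGs among them numbered 1, and 2 with library totals alone (C3ar1 and C5ar1), 0 with the 2 groups alone, 0 with the neuron covariate and 0 to 1 with a mouse left out. Where there was 1, it was Itgam, except with mice numbered 04 alone, where it was C3ar1. Library totals alone moved the median of all genes by 0.0982 on the log2 scale. On the wider list 2 passed, and 1 with mice numbered 04 alone, 0 with the neuron covariate and 1 to 4 with a mouse left out. The count was 3, C5ar2 being the third, with DESeq2, robust estimation, upper quartile scaling, no sex term or without mice of high Fos. With library totals alone or the immediate-early covariate it was also 3, C1qbp being the third (log2 fold change 0.17 with TMM scaling and no covariate).

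Against heterozygous mice 5 members passed, and 3 with the 2 groups alone, 3 with mice numbered 04 alone, 3 without mice of high Fos, 2 with the immediate-early covariate, 1 with the neuron covariate (C3ar1) and 3 to 5 with a mouse left out. It was 3 without heterozygous F1 or F4 or homozygous F2, F5 or M2. DEGs numbered 1, and 2 with library totals alone, 2 with mice numbered 04 alone and 1 to 3 with a mouse left out (3 without homozygous F4). Where there was 1, it was C3ar1, but Itgam without homozygous M4 or heterozygous M1 or M4 and with mice numbered 03 alone. C5ar1 was also lost with limma-voom and robust estimation, where 4 members passed. Itgb2 was lost with RLE scaling and with library totals alone, where 4 members passed. The same held without the filter on low counts, with a filter of 1 CPM in 6 mice and with mice numbered 03 alone. In this comparison the covariates, the subsets of homozygous mice and the left-out mice were chosen after seeing the data.

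The log2 fold changes of C1qb and C1qc against WT changed sign around 0, to 0.0820 and 0.0932 with library totals alone, 0.0872 and 0.0520 with mice numbered 04 alone, 0.0529 and 0.0310 without mice of high Fos, 0.0883 and 0.0577 with the immediate-early covariate and 0.0940 and 0.0438 with the neuron covariate, and to 0.0018 for C1qc with the 2 groups alone. With a mouse left out they ran from -0.0543 to 0.0089 and from -0.0397 to 0.0247. The other members kept their direction under all 16 alternatives and all 23 fits with a mouse left out. C5ar1 passed against WT with library totals alone (adjusted p = 0.0279 by edgeR, 0.0279 to 0.448 over the alternatives). Itgb2 was lost with library totals alone and without the filter on low counts (adjusted p = 0.0923 and 0.0501 by edgeR). The cause of these changes was not tested. Heterozygous against WT, sex and the interaction gave 0 members under each of the 11, 2 and 2 alternatives run. Depth limits C3, at 0 to 35 counts a mouse.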

Other observations

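The mice that stood apart in the ratio of C1qa to C1qb also stood apart on genes elsewhere in the genome. These genes were singled out after their values were seen, from the 50 ranked first by correlation with the ratio over the 10 homozygous mice. They follow the ratio by that choice, so they are no independent support for the split. Eno1b did not follow it, at 69.85 to 88.34 CPM in F1, F3 and F4, and at 0 to 0.74 CPM in M2 and the mice of the lower range. Gnb4, a G protein subunit gene on chromosome 3, was at 23.4 to 54.4 CPM in F1, F3, F4 and M2 and at 0.0673 to 0.3 CPM in the other 6, beside 26.8 to 34.4 CPM in WT littermates and 21.0 to 30.4 CPM in heterozygous mice. Gm10093 on chromosome 17 was at 19.3 to 25.0 CPM in the same 4 and at 0.292 to 2.4 CPM in the other 6, beside 19.0 to 24.0 CPM in WT littermates. Of the 50 genes 20.0% lie on chromosome 4, which holds 6.14% of the genes tested, and 10.0% lie within 5 Mb of C1qa, where 1.07% of the genes tested lie.

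Neighbors of the C1q genes were counted by position alone. Of 138 genes tested within 5 Mb of C1qa, 39 passed between homozygous and WT mice (28.3%, 15 higher and 24 lower), beside 14.5% over chromosome 4 and 12.7% over all genes. Windows of the same size held 12.0% around C3, 9.09% around C3ar1, 9.21% around C5ar1, 6.40% around Itgam and 11.4% around Itgb2. Between heterozygous and WT mice none of the 138 passed, as 0 of all genes did by edgeR. What these values come from, strain background around the C1q genes included, was not tested.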
